A study of Mus musculus with 23 samples.

Results

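Interferon-stimulated genes (ISGs) are the genes that cells switch on when an interferon binds its receptor, and 50 of them were followed here in the colonic epithelium of mice on different diets. The 50 were picked by gene symbol from the known targets of type I and type II interferon outside the major histocompatibility complex (MHC), with no measured value in the rule, and each symbol matched 1 of the 24917 gene loci counted. The members were nevertheless chosen with earlier results of these data known. They fall into 10 lists by role, which are sensors of foreign RNA and DNA, transcription factors, ISG15 conjugation, IFIT proteins, the OAS family, other antiviral effectors, the PARP9 group, immunity-related GTPases, guanylate-binding proteins and a chemokine.

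The libraries came from male C57BL/6 mice (C57BL/6J in the methods), for which the labels name no altered allele, and which entered 1 of 3 dietary regimens at 6 weeks of age and stayed on it for 43 weeks. The LF group ate a diet with 10% fat throughout, the HF group ate a diet with 60% fat throughout, and the HFLF group ate the 60% fat diet for 15 weeks and then the 10% fat diet for 28 weeks, with lard as the fat of both diets. Epithelium was loosened from the entire colon with EDTA and total RNA was sequenced after removal of ribosomal RNA. The labels assign each library to batch 1 (4 LF, 3 HF and 4 HFLF libraries) or batch 2 (4 LF, 3 HF and 5 HFLF libraries) without saying what a batch was. The methods name fewer mice per regimen than there are libraries, so it is not established that every library is a separate mouse, and p-values then measure the spread between libraries.

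Total counts per library ran from 29189922 to 46498521 in batch 1 and from 31607019 to 65320947 in batch 2. Levels are in counts-per-million (CPM), scaled to library size within each batch, and 3 counts, taken as the floor for a gene with no reads, corresponded to between 0.0459 and 0.103 CPM. The 8 epithelial markers summed to between 23900 and 40200 CPM in every library, which is the labelled tissue. T cell and intraepithelial lymphocyte markers summed to between 15.0 and 38.8 CPM, markers of macrophages and dendritic cells to at most 17.3 CPM, and those of B and plasma cells and of plasmacytoid dendritic cells to at most 1.04 and 1.2 CPM.

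As background, type I and type III interferons signal through receptor-bound kinases to a transcription factor complex that holds STAT2 and IRF9 and binds the interferon-stimulated response element (ISRE), while the response to type II interferon (interferon gamma) runs through the gamma-activated site (GAS). The intestinal epithelium keeps part of this program on at rest, since microbial products reach it continuously. The IFIT, OAS, ISG15 and Rsad2 genes are classical type I and III targets, and the immunity-related GTPases, the guanylate-binding proteins and Cxcl10 respond most readily to interferon gamma.

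The promoters of the members carry these elements in letters that can be read. A window of 300 bases, from 250 before to 50 after the transcription start, was found for 38 of the 50 members in the RefSeq table of GRCm38.p6. An ISRE core, spelled here as GAAANNGAAA on either strand, was present in 21 of the 38 windows (55.3%) and in 1131 of all 32851 windows of the table (3.44%). A GAS core, spelled as TTCNNNGAA, was present in 10 of the 38 (26.3%) and in 2726 of all windows (8.30%). Both elements were found in 6 members and neither in 13. Of the members called in a diet comparison below, Irf7, Uba7, Sp100 and Oasl2 had neither element in the window. Oas2 and Parp14 had no window, and Stat2, Rsad2, Ddx58, Ddx60, Oas3 and Oas1g had an ISRE core. These counts describe the windows and not binding, and no ISRE match overlaps a GAS match in the windows printed here.

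The windows below are printed, on the strand of the gene, because they show the 2 elements in genes whose diet differences or extreme libraries are described further on, with the matched elements in capitals. These windows were picked from those that hold a match. Isg15 has 3 overlapping ISRE cores in 1 run beginning 78 bases before the start, on the minus strand at chr4:156200769-156201068. Ddx60 has 2 cores, 53 and 19 bases before the start, at chr8:61927837-61928136 on the plus strand. The cores of Stat2 and Rsad2 begin 222 and 120 bases before the start and are read on the opposite strand, so that they appear as TTTCNNTTTC. The Stat2 window is chr10:128270248-128270547 on the plus strand, and that of Rsad2 is chr12:26456403-26456702 on the minus strand. Igtp, an immunity-related GTPase, has a GAS core followed by an ISRE core, 45 and 34 bases before the start, at chr11:58199306-58199605 on the plus strand. Irf1, the transcription factor that interferon gamma induces first, has a GAS core 90 bases before the start and no ISRE core in the window at chr11:53769764-53770063 on the plus strand.
Isg15: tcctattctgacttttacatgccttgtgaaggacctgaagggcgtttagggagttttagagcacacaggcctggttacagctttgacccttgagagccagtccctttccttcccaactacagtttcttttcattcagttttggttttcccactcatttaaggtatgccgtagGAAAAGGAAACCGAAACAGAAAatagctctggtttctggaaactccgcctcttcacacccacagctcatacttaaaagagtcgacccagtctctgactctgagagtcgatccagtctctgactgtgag
Ddx60: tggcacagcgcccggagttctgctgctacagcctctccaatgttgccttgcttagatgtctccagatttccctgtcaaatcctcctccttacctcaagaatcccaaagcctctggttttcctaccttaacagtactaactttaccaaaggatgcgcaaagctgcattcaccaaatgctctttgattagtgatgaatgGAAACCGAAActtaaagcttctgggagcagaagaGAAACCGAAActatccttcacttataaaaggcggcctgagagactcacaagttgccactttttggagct
Stat2: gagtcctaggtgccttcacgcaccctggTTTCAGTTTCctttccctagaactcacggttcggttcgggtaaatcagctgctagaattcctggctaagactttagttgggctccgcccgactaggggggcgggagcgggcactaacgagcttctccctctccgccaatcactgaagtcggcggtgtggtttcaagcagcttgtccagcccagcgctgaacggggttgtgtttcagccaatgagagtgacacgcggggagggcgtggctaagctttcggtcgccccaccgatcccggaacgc
Rsad2: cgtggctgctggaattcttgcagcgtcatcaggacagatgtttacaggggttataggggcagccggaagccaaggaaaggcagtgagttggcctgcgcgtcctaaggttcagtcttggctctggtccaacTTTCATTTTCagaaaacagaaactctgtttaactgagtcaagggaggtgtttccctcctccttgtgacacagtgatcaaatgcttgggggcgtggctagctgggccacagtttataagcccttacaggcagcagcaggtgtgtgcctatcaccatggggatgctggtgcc
Igtp: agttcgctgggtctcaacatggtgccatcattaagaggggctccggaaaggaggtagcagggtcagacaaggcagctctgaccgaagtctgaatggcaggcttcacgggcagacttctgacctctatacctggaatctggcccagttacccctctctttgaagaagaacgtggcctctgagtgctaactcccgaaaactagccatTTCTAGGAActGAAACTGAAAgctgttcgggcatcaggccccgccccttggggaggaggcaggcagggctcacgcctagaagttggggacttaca
Irf1: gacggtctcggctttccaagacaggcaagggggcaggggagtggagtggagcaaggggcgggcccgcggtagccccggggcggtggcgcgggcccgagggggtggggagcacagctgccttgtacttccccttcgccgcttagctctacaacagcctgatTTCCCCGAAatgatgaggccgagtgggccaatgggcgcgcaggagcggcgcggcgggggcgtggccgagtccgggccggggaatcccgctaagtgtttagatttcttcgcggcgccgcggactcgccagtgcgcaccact

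Several libraries stood apart for these genes, and each is named before the diets are compared. In batch 1, HFLF replicate 4 had the highest level of 37 of the 50 members, while it was the highest library for 6.67% of all genes tested. Its level lay more than 1 log2 unit above the batch median for 17 members. LF replicate 1 of the same batch was the highest for 0 members but lay more than 1 log2 unit above the median for 12, and these 2 libraries held the highest 2 values for 30 members. In batch 2, HFLF replicate 1 was the highest library for 23 members against 13.5% of all genes, and LF replicate 4 for 15 members against 4.83%, so that 1 of these 2 libraries was the highest for 38 members. HF replicate 3 of batch 1 was the lowest for 16 members, but it was also the lowest for 24.7% and the highest for 27.4% of all genes.

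**Figure D1:**
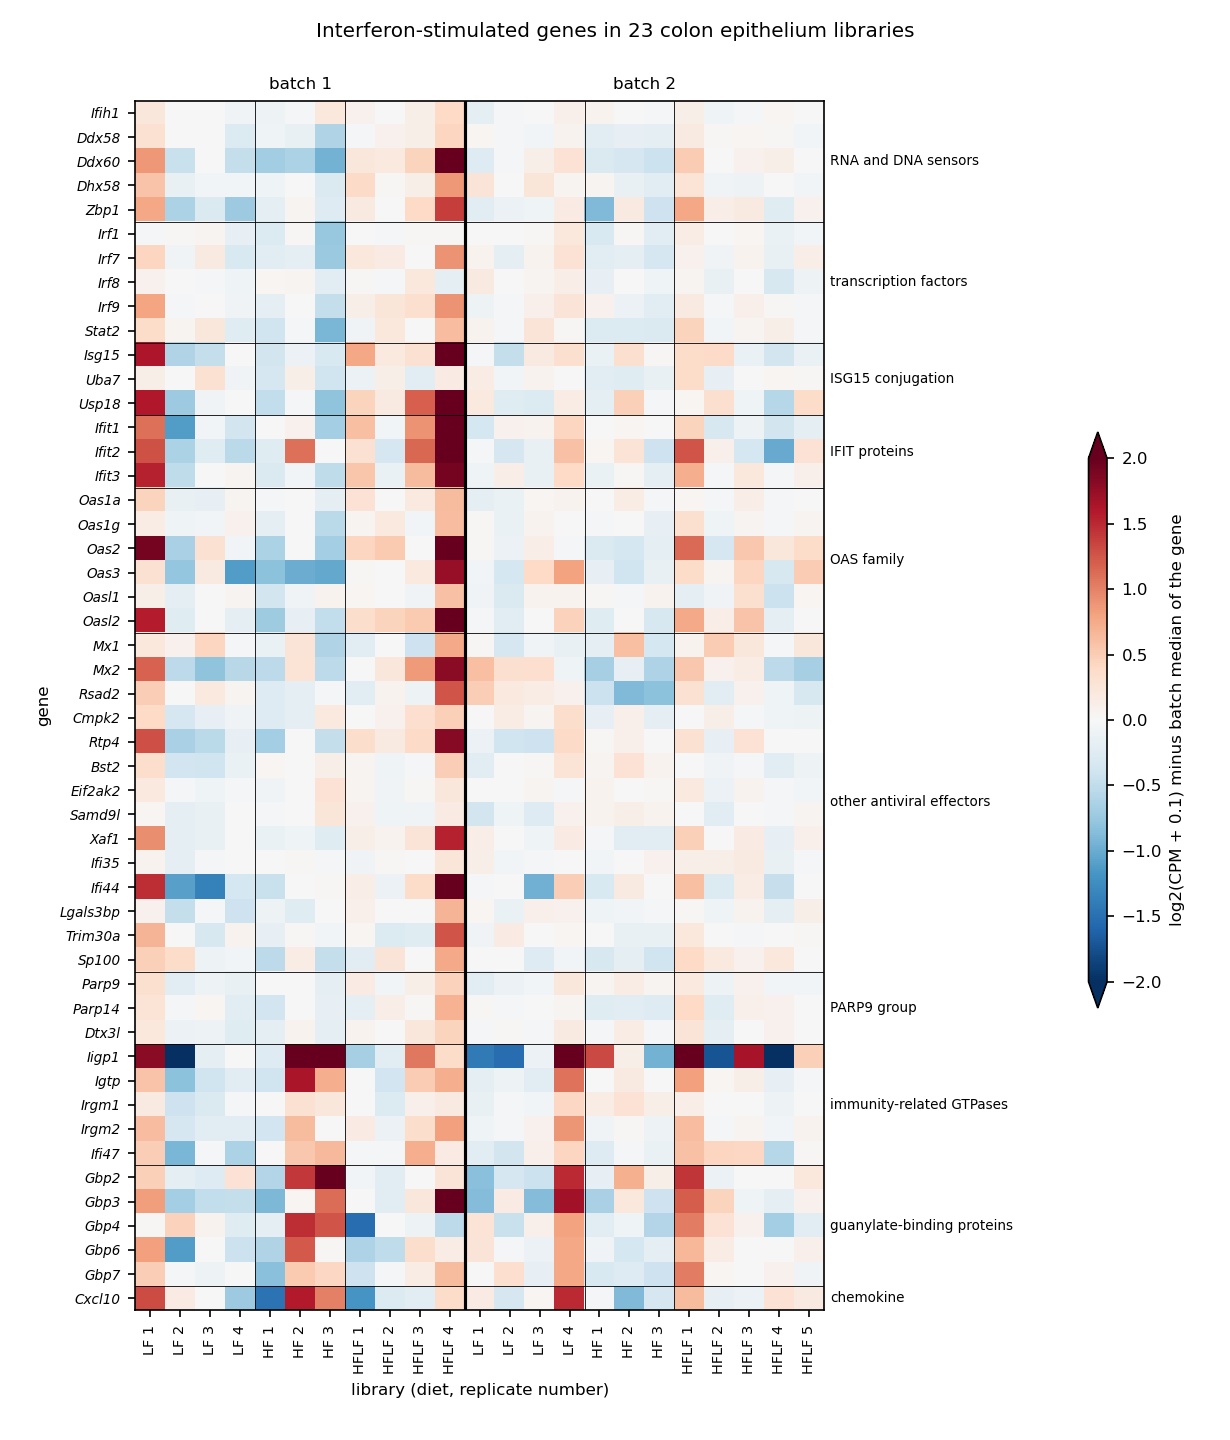
Each of the 50 genes (rows) in each of the 23 libraries (columns), as log2(CPM + 0.1) minus the median of that gene in its batch, with lists and diets separated by thin lines and batches by the thick line. HFLF replicate 4 and LF replicate 1 of batch 1 are high across most lists, while HF replicates 2 and 3 of batch 1 are high in Iigp1, Igtp, Gbp2, Gbp4 and Cxcl10.

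The high libraries differed in the lists where they stood furthest out, but these lists overlapped in part. The median difference from the batch median over the 3 IFIT genes was 2.34 on the log2 scale in HFLF replicate 4 and 1.28 in LF replicate 1 of batch 1, against -0.63 to 0.90 in the other libraries of that batch. Over the 6 OAS genes it was 1.18 in HFLF replicate 4 and 0.38 in LF replicate 1. The 5 guanylate-binding proteins were highest in HF replicates 2 and 3 of batch 1 (1.23 and 1.12), in HFLF replicate 1 of batch 2 (1.03) and in LF replicate 4 of batch 2 (0.80). The immunity-related GTPases stood 0.62 and 0.64 above the median in those HF libraries, 0.61 in that HFLF library and 0.88 in that LF library. LF replicate 1 of batch 1 was also above the median for the GTPases (0.58) and the guanylate-binding proteins (0.49). HFLF replicate 1 of batch 2 was also above it for the IFIT genes (0.72).

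The MHC class II genes, which interferon gamma induces through the coactivator Ciita and which are no members, moved with the guanylate-binding proteins in 3 of these 4 libraries. The 9 genes summed to 428 CPM in HF replicate 3 of batch 1, 163 CPM in LF replicate 4 of batch 2 and 111 CPM in HFLF replicate 1 of batch 2, against 23.3 to 63.6 CPM in the other 20 libraries. HF replicate 2 of batch 1 stayed at 37.5 CPM. Ciita itself was at 5.74 CPM in HF replicate 2 and 3.15 CPM in HF replicate 3 of batch 1, 5.47 CPM in LF replicate 4 and 6.42 CPM in HFLF replicate 1 of batch 2. The library with the highest class II sum thus had the lowest of these 4 Ciita levels. Ciita levels of the other libraries are not given here, so these values are not read as raised. The 15 MHC class I genes summed to between 1640 and 2310 CPM with list medians within 0.20 of the batch median, without the extremes of the class II genes. The part of these libraries in each diet difference is given below as values without them.

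**Figure D2:**
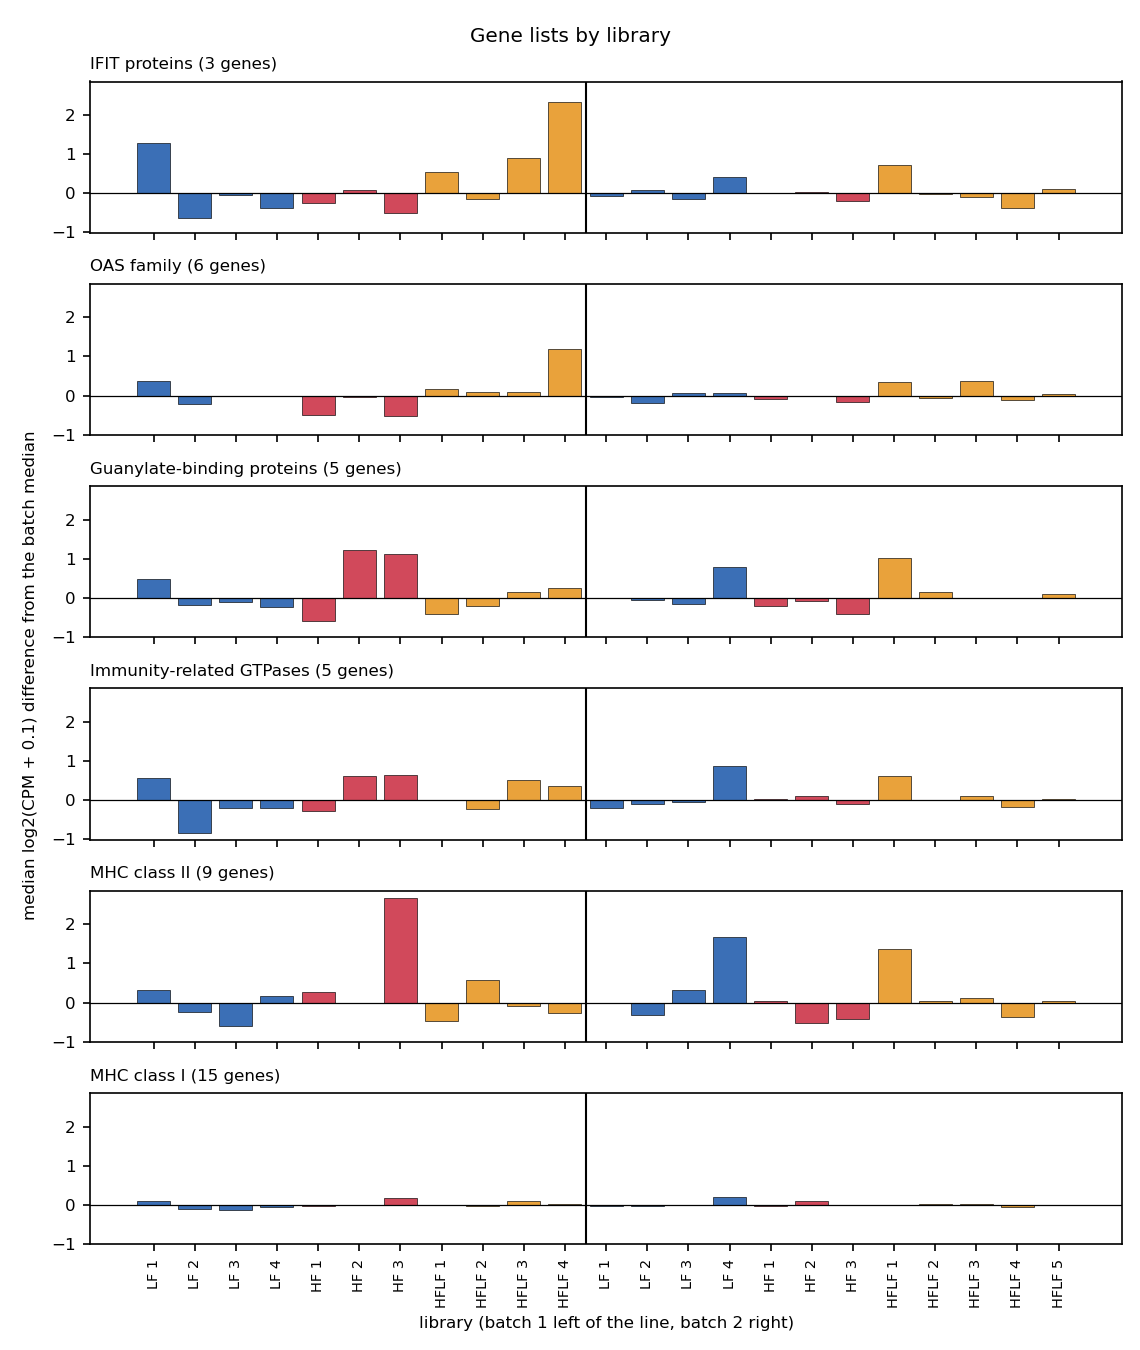
Median log2(CPM + 0.1) difference from the batch median over the genes of 6 lists (panels), 1 bar for each of the 23 libraries, with blue for LF, red for HF and orange for HFLF. The IFIT and OAS lists peak in HFLF replicate 4 of batch 1, the guanylate-binding proteins in HF replicates 2 and 3 of batch 1 and HFLF replicate 1 and LF replicate 4 of batch 2, and the class I list is nearly flat.

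Per kilobase of exon, the members spanned more than 2 orders of magnitude, and the sparse ones varied the most, on levels that were scaled in each batch separately. Irf1 had the highest median over the 23 libraries at 50.1 CPM per kb, followed by Lgals3bp, a secreted glycoprotein, at 47.5, Samd9l, a restriction factor for poxviruses, at 40.9 and Irf7 at 34.5. Cxcl10, a chemokine for T cells, had 0.142 CPM per kb and Gbp4 had 0.162. The 12 members whose highest library was under 2 times the lowest had a median of 18.9 CPM per kb, and among them were the sensor Ifih1 (22.1), the kinase Eif2ak2 (13.5), Irf8 (22.1) and Ifi35 (19.5). The 18 members with a ratio of 5 or more had a median of 0.993 CPM per kb. In that set were Isg15 and its protease Usp18 at ratios of 10.4 and 11.5, Oas2 at 16.9, Ifi44 at 20.6 and Gbp3 at 16.0. The ratio could be computed for 49 members, since Iigp1 had 0 counts in HFLF replicate 4 of batch 2.

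**Figure D3:**
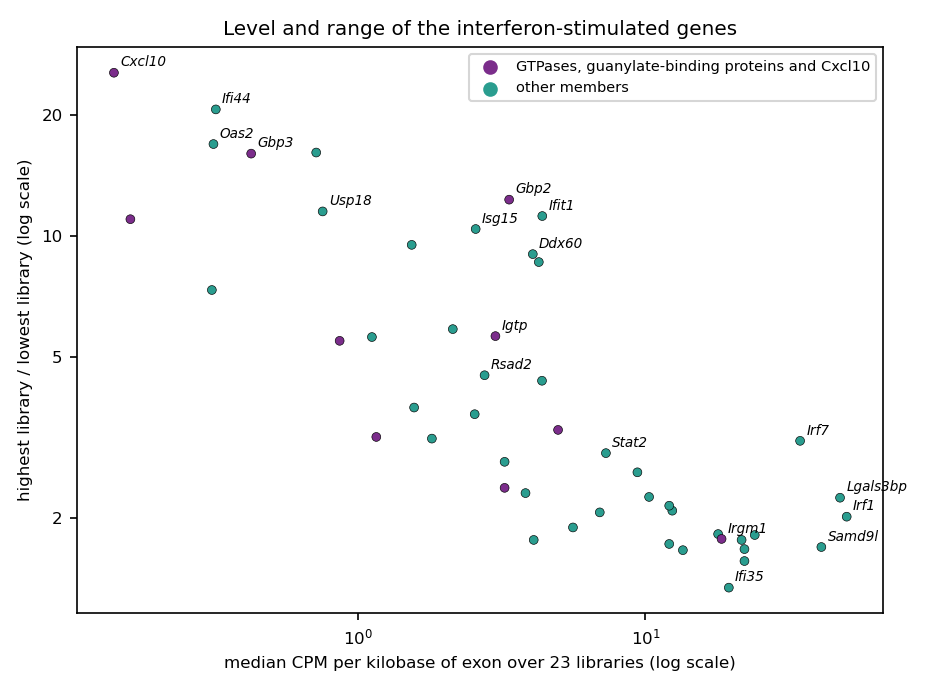
Median level over the 23 libraries in CPM per kilobase of exon (horizontal, log scale) against the ratio of the highest to the lowest library (vertical, log scale) for 49 members, with GTPases, guanylate-binding proteins and Cxcl10 in purple and the rest in green. Cxcl10 and Oas2, among the least expressed members, have ratios above 10, while Irf1, Samd9l and Lgals3bp lie near or under 2.3.

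Spread within a diet group was wide for these genes. The median member had a within-group SD of 0.44 on the log2 scale in batch 1 and 0.20 in batch 2, against 0.20 and 0.13 for the median of all genes tested. The genes were not matched for level in these medians, and the high libraries named above were kept in them. In these bulk samples, fewer cells of a type and less RNA per cell cannot be told apart, and this holds for every difference below.

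The first comparison asks whether 43 weeks of the 60% fat diet changed the ISGs relative to the 10% fat diet. Calls required a Benjamini-Hochberg adjusted p under 0.05 over all genes tested (edgeR quasi-likelihood test) and a fold change above 1.2. In batch 2, Rsad2 and Stat2 fell in HF and no member rose. Over both batches, with batch as a term, Stat2, Rsad2, Uba7 and Irf7 fell. In batch 1 no member was called in either direction. These shares were no larger than those of all genes, since 2 of 49 members (4.08%) were called lower in batch 2 against 4.59% of all genes, and 4 of 50 (8.0%) over both batches against 9.13%. In batch 1, 0.00693% of all genes were called in either direction, which is 1 of 14428.

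Rsad2 encodes viperin, an enzyme that makes a chain-terminating nucleotide, and lies at chr12:26442743-26456452 beside its neighbour Cmpk2, which makes the substrate. In batch 2 the LF libraries had 14.4, 11.7, 11.4 and 10.8 CPM, the HF libraries 7.54, 5.51 and 5.73 CPM, and the HFLF libraries 12.7, 8.81, 10.9, 9.68 and 8.16 CPM. Every HF library was below every library of the other diets. The log2 difference of HF from LF was -0.95 ± 0.16 (SE), 1.93-fold lower (edgeR adjusted p = 0.0116). In batch 1 the LF libraries had 14.7, 10.4, 11.9 and 10.8 CPM, the HF libraries 8.71, 9.14 and 10.2 CPM, and the HFLF libraries 9, 10.9, 9.64 and 24.9 CPM. The HF libraries again did not reach the LF libraries, but the difference of -0.35 ± 0.30 was not called (edgeR adjusted p = 0.475). Over both batches it was -0.65 ± 0.19 (edgeR adjusted p = 0.0163), and the gene remained called with any 1 of the 23 libraries left out.

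Stat2, a subunit of the complex that binds the ISRE, lies at chr10:128270576-128292849. Its batch 2 levels were 32.0, 30.2, 36.6 and 31.0 CPM in LF and 25.4, 25.2 and 25.1 CPM in HF, with 41.5, 29.4, 31.8, 33.3 and 30.0 CPM in HFLF. The HF libraries were nearly equal and lay below all others, a difference of -0.36 ± 0.10 from LF (edgeR adjusted p = 0.0442). That call was close to the threshold and was kept in 3 of 12 fits that left out 1 library. In batch 1 LF had 47.3, 38.1, 43.0 and 31.1 CPM, HF had 27.9, 36.1 and 19.5 CPM, and HFLF had 35, 42.6, 36.7 and 56.3 CPM. There the diets overlapped and the difference of -0.52 ± 0.21 did not pass (edgeR adjusted p = 0.190). Over both batches it was -0.44 ± 0.12 (edgeR adjusted p = 0.0142), called with any 1 library left out.

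Irf7, the factor that amplifies type I interferon production and lies at chr7:141263183-141266424, had 114, 80.4, 95 and 68.3 CPM in LF, 72.0, 73.9 and 50.6 CPM in HF and 97.1, 94.8, 84.3 and 157 CPM in HFLF of batch 1. Batch 2 had 83.2, 68.9, 83.1 and 96.8 CPM in LF, 68.6, 69.7 and 62.7 CPM in HF and 83.7, 75.6, 82.7, 71.2 and 87.0 CPM in HFLF. LF and HF overlapped in both batches, by 1 LF library each time. The difference of -0.45 ± 0.22 in batch 1 and -0.31 ± 0.10 in batch 2 was called in neither (edgeR adjusted p = 0.242 and 0.0545), and the difference of -0.37 ± 0.14 over both was called (edgeR adjusted p = 0.0446), in 8 of 23 fits without 1 library.

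Uba7, the enzyme that activates ISG15 for transfer to other proteins, lies at chr9:107975567-107984056. In batch 1 it had 78.6, 72.1, 89.0 and 68.9 CPM in LF, 56.9, 77.8 and 54.6 CPM in HF and 66.5, 78.3, 61.3 and 81.1 CPM in HFLF. Its levels in batch 2 were 85.6, 74.0, 80.8 and 76.7 CPM in LF, 65.4, 64.8 and 69.2 CPM in HF and 99.0, 68.4, 77.2, 78.9 and 78.1 CPM in HFLF. HF lay below LF in batch 2 without overlap and overlapped it in batch 1. The difference over both batches was -0.27 ± 0.09 (edgeR adjusted p = 0.0239), called in 11 of 23 fits without 1 library. The ISG15 partners of Uba7 did not pass in this comparison, with differences over both batches of -0.29 ± 0.41 for Isg15 and -0.32 ± 0.43 for Usp18.

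**Figure D4:**
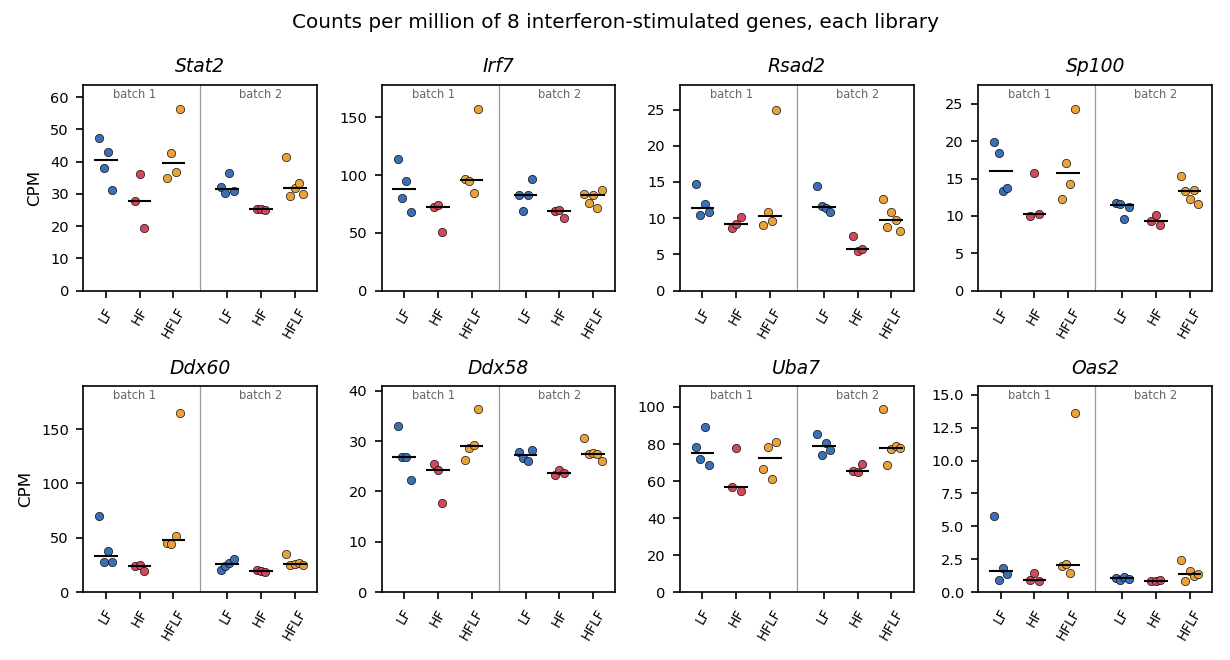
CPM of 8 members in each library, by diet and batch, with points for libraries and bars for the group medians, on axes that start at 0. The HF libraries are the lowest group in batch 2 for Stat2 (25.1 to 25.4 CPM) and Rsad2 (5.51 to 7.54 CPM), and HFLF replicate 4 of batch 1 lies above all others for Rsad2, Ddx60 and Oas2.

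Ddx58 and Irf1 also passed the adjusted p over both batches without the fold. Ddx58 (RIG-I, a sensor of viral RNA) had a difference of -0.24 ± 0.09 (edgeR adjusted p = 0.0454) and Irf1 one of -0.25 ± 0.08 (edgeR adjusted p = 0.0319). Irf1 had 161, 167, 171 and 148 CPM in LF, 137, 167 and 97.2 CPM in HF and 165, 160, 167 and 168 CPM in HFLF of batch 1. In batch 2 it had 168, 169, 172 and 195 CPM in LF, 137, 171 and 146 CPM in HF and 187, 168, 173, 154 and 162 CPM in HFLF. In both batches, all but 1 of the HF libraries were below every LF library, and that 1 was within their range. Samd9l was the one member to pass in the other direction, at 0.19 ± 0.07 higher in HF (edgeR adjusted p = 0.0415), also under the fold required. It had 235, 202, 206 and 230 CPM in LF, 223, 228 and 271 CPM in HF and 241, 214, 218 and 255 CPM in HFLF of batch 1, and 161, 195, 174 and 219 CPM, 218, 225 and 218 CPM, and 208, 178, 206, 202 and 214 CPM in batch 2. The LF and HF libraries of Samd9l overlapped in both batches.

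Across the lists, the direction was mostly but not uniformly downward. The median log2 difference of the members was -0.17 in batch 1, -0.20 in batch 2 and -0.16 over both, where the median of all genes lay between -0.013 and -0.004. The difference was above 0 for 18 of 50 members in batch 1, 12 of 49 in batch 2 and 13 of 50 over both. All 5 transcription factors were below 0 in each batch. In batch 1, 1 member had an unadjusted p under 0.05 and was lower, against 10.2% of all genes, and 4 were higher, against 12%. DESeq2 gave 5 higher and 1 lower at that level in batch 1, with no call. In batch 2, edgeR gave 13 lower and 1 higher at that level, and DESeq2 gave 16 lower and 1 higher. Over both batches each gave 7 lower and 2 higher. The share of all genes at that level is not given here for batch 2 or for both, so these counts are not read further. Every HF library was below every LF library for 2 members in batch 1, against 7.33% of all genes, and for 9 members in batch 2, against 13.5%.

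Some of these medians rested on the libraries that stood apart. Without LF replicate 1, the batch 1 median was 0.07, and 30 of 50 members lay above 0. Leaving out LF replicate 4 moved the batch 2 median to -0.06 and the number of calls from 2 to 5. Without HF replicate 2 of batch 1, 3 members were called in batch 1. In batch 2, 0 members were called without HF replicate 2 or HF replicate 3, 4 without HFLF replicate 1, and 1 without HF replicate 1, LF replicate 1 or 3, or HFLF replicate 3, 4 or 5. Over both batches the 4 calls became 2 without HF replicate 3, LF replicate 1 or 3 or HFLF replicate 2 of batch 1, and 7 without HFLF replicate 4 of batch 1. In batch 2 the libraries whose loss left 2 calls over both batches were LF replicate 1 and HFLF replicates 1, 3 and 5.

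The immunity-related GTPases and guanylate-binding proteins lay on the other side of 0 in batch 1. All 5 genes of each list were above 0 in HF against LF there, with medians of 0.59 and 0.42, and none was called. Iigp1, a GTPase that disrupts pathogen vacuoles, had 3.83, 0.137, 0.895 and 1.03 CPM in LF, 0.841, 21.3 and 13 CPM in HF and 0.610, 0.868, 2.24 and 1.36 CPM in HFLF of batch 1. The difference of 2.96 ± 0.95 (edgeR adjusted p = 0.164) came from HF replicates 2 and 3. In batch 2 Iigp1 had 0.0612, 0.0490, 0.296 and 8.77 CPM in LF, 0.975, 0.364 and 0.122 CPM in HF and 5.26, 0.0302, 1.25, 0 and 0.497 CPM in HFLF. Several of these values were at or under the floor of 3 counts, and the high ones were 1 LF and 1 HFLF library.

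Gbp2, which helps to lyse pathogen vacuoles, showed the same 4 libraries. In batch 1 LF had 13.6, 8.63, 8.14 and 11.9 CPM, HF had 6.47, 26.2 and 48.4 CPM, and HFLF had 9.39, 8.45, 9.77 and 11.7 CPM. In batch 2 LF had 3.94, 5.66, 5.28 and 20.2 CPM, HF had 6.37, 11.7 and 7.74 CPM, and HFLF had 19.3, 6.55, 7.15, 7.13 and 8.31 CPM. One HF library of batch 1 was below all LF libraries and the other 2 above them, so that the difference of 1.35 ± 0.46 was not called (edgeR adjusted p = 0.167), and in batch 2 it was -0.05 ± 0.60. Gbp4 had 0.860, 1.2, 0.895 and 0.698 CPM in LF, 0.733, 2.52 and 2.16 CPM in HF and 0.229, 0.843, 0.783 and 0.553 CPM in HFLF of batch 1. Its batch 2 levels were 0.826, 0.466, 0.727 and 1.24 CPM in LF, 0.563, 0.624 and 0.413 CPM in HF and 1.47, 0.845, 0.718, 0.380 and 0.562 CPM in HFLF. The HF difference of Gbp4 was 0.98 ± 0.43 in batch 1 and -0.64 ± 0.40 in batch 2.

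Igtp (Irgm3), which guards host membranes against the other GTPases, had 11.4, 4.26, 5.78 and 6.59 CPM in LF, 5.78, 24.0 and 12.7 CPM in HF and 7.63, 5.80, 10.9 and 12.7 CPM in HFLF of batch 1. Batch 2 had 5.20, 5.54, 5.03 and 12.7 CPM in LF, 6.00, 6.76 and 5.87 CPM in HF and 10.5, 6.09, 6.46, 5.26 and 5.81 CPM in HFLF. The groups overlapped in both batches, with differences of HF from LF of 1.00 ± 0.43 and -0.21 ± 0.31. Cxcl10 rested on 2 to 36 counts per library. It had 0.887, 0.344, 0.298 and 0.140 CPM in LF, 0.0431, 1.09 and 0.699 CPM in HF and 0.0763, 0.230, 0.243 and 0.415 CPM in HFLF of batch 1, and 0.214, 0.123, 0.188 and 0.687 CPM, 0.173, 0.0520 and 0.122 CPM, and 0.336, 0.151, 0.159, 0.244 and 0.216 CPM in batch 2. HF replicate 2 and LF replicate 1 were its highest libraries in batch 1 and LF replicate 4 and HFLF replicate 1 in batch 2, and it was below the level needed for testing in batch 2.

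A test of the difference between the batches themselves called no member. The interaction of diet (HF against LF) with batch had an unadjusted p under 0.05 for 2 of 50 members, Gbp4 and Iigp1, against 6.51% of all genes. The smallest was that of Gbp4, with a log2 interaction of -1.61 (edgeR adjusted p = 0.716), and DESeq2 also gave 2 at that level and no call.

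In batch 2 the smooth muscle markers were lower in HF than in LF, while the fibroblast and T cell sums overlapped between these diets. The 5 smooth muscle markers summed to between 5.36 and 29.0 CPM in LF and between 0.78 and 4.51 CPM in HF, with an unadjusted p under 0.05 for each and none called. The share of all genes at that level is not given here. The 5 fibroblast markers summed to 9.18 to 33.0 CPM in LF and 4.27 to 15.8 CPM in HF. The T cell and intraepithelial lymphocyte markers summed to 16.6 to 21.0 CPM in LF and 15.0 to 20.8 CPM in HF. In batch 1 the smooth muscle sums overlapped, at 1.14 to 10.7 CPM in LF and 0.541 to 9.43 CPM in HF. Endothelial markers there summed to 6.08 to 8.54 CPM in LF and 1.65 to 6.87 CPM in HF. Those of macrophages and dendritic cells summed to 5.66 to 11.7 CPM and 4.03 to 8.5 CPM. The part of these cells in the lower Rsad2 and Stat2 was not tested.

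The second comparison asks whether the return to the 10% fat diet changed the ISGs relative to mice kept on the 60% fat diet. In batch 2, 7 of 49 members rose in HFLF (14.3%, against 9.02% of all genes called higher). They were Sp100, Rsad2, Ddx60, Stat2, Parp14, Uba7 and Oas2, and no member fell. Over both batches 11 of 50 rose (22%, against 5.48% of all genes) and none fell, and they were Stat2, Sp100, Ddx58, Irf7, Ddx60, Oas3, Parp14, Rsad2, Oas2, Oas1g and Oasl2. Since libraries of the 2 batches may come from the same mice, libraries of the same diet and number were also summed over the batches, and 4 members were then called. The share of all genes called in that fit is not given here, so this count is not set against 5.48%. In batch 1 no member was called in either direction, where 0.00693% of all genes were. The HF libraries are the same as in the first comparison, so that a low HF group appears in both.

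By role, the OAS family, whose products make the messenger that activates RNase L, held the most calls over both batches, 4 of 6. Sensors held 2 of 5, transcription factors 2 of 5, other antiviral effectors 2 of 14 and the PARP9 group 1 of 3. With edgeR, no IFIT, ISG15 conjugation, GTPase or guanylate-binding protein gene was called over both batches, nor was Cxcl10, while DESeq2 called 14 members, among them Ifit3, Irf9 and Xaf1. The share of all genes that DESeq2 called is not given here.

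Sp100, a nuclear body protein that restricts DNA viruses, lies at chr1:85650050-85709448. Its levels in batch 2 were 11.7, 11.6, 9.64 and 11.2 CPM in LF, 9.31, 10.1 and 8.81 CPM in HF and 15.4, 13.3, 12.3, 13.5 and 11.6 CPM in HFLF. Every HFLF library was above every HF library, a difference of 0.49 ± 0.10 (edgeR adjusted p = 0.0129). In batch 1 LF had 19.9, 18.4, 13.3 and 13.7 CPM, HF had 9.94, 15.8 and 10.3 CPM, and HFLF had 12.3, 17.1, 14.3 and 24.3 CPM. The diets overlapped there, and the difference of 0.50 ± 0.24 did not pass (edgeR adjusted p = 0.466). Over both batches it was 0.50 ± 0.13 (edgeR adjusted p = 0.0189), called in 22 of 23 fits without 1 library.

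For Stat2 the difference was 0.40 ± 0.10 in batch 2 (edgeR adjusted p = 0.0203) and 0.62 ± 0.21 in batch 1 (edgeR adjusted p = 0.411), and over both batches, at 0.50 ± 0.12 (edgeR adjusted p = 0.0145), it was called with any 1 library left out. Rsad2 rose by 0.68 ± 0.15 in batch 2 (edgeR adjusted p = 0.0142), where every HFLF library was above every HF library, and by 0.60 ± 0.18 over both (edgeR adjusted p = 0.0325). Irf7 rose by 0.48 ± 0.13 over both batches (edgeR adjusted p = 0.0230), and in each batch every HFLF library was above every HF library. Uba7 rose by 0.27 ± 0.09 in batch 2 (edgeR adjusted p = 0.0484), and its 0.24 ± 0.08 over both batches passed neither limit (edgeR adjusted p = 0.0532).

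Ddx60, a helicase that aids RIG-I, lies at chr8:61928089-62037695 and had 70.1, 28.0, 38.2 and 27.5 CPM in LF, 23.6, 24.6 and 19.7 CPM in HF and 44.8, 43.9, 51.9 and 165 CPM in HFLF of batch 1. In batch 2 it had 20.5, 24.2, 26.6 and 30.2 CPM in LF, 20.2, 19.4 and 18.3 CPM in HF and 35, 24.7, 26.1, 26.7 and 24.5 CPM in HFLF. HF was below both other diets without overlap in both batches. HFLF exceeded HF by 0.50 ± 0.13 in batch 2 (edgeR adjusted p = 0.0199), by 1.75 ± 0.51 in batch 1 (edgeR adjusted p = 0.411) and by 1.11 ± 0.30 over both (edgeR adjusted p = 0.0232). Ddx58, at chr4:40203777-40239825, had 33.1, 26.9, 26.9 and 22.2 CPM in LF, 25.4, 24.2 and 17.7 CPM in HF and 26.2, 28.7, 29.2 and 36.3 CPM in HFLF of batch 1, and 27.8, 26.6, 26 and 28.3 CPM, 23.3, 24.2 and 23.7 CPM, and 30.7, 27.5, 27.6, 27.4 and 26 CPM in batch 2. Here too every HFLF library exceeded every HF library of its batch, with a difference of 0.33 ± 0.09 over both (edgeR adjusted p = 0.0190).

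Oas2 and Oas3, neighbours on chromosome 5 at chr5:120730333-120749848 and chr5:120753098-120777659, had larger differences that leaned on fewer libraries. Oas2 had 5.77, 0.894, 1.82 and 1.40 CPM in LF, 0.906, 1.46 and 0.879 CPM in HF and 2.01, 2.14, 1.46 and 13.6 CPM in HFLF of batch 1. Batch 2 had 1.07, 0.956, 1.16 and 1.03 CPM in LF, 0.845, 0.806 and 0.917 CPM in HF and 2.41, 0.814, 1.57, 1.25 and 1.38 CPM in HFLF. In batch 2, 4 of 5 HFLF libraries were above all HF libraries, and the difference of 0.78 ± 0.26 (edgeR adjusted p = 0.0489) was called in 1 of 12 fits without 1 library. Over both batches it was 1.47 ± 0.48 (edgeR adjusted p = 0.0423), in 13 of 23 such fits.

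Oas3 had 15.5, 7.29, 14.1 and 5.69 CPM in LF, 7.05, 6.23 and 6.08 CPM in HF and 12.7, 12.5, 14.3 and 42.2 CPM in HFLF of batch 1, and 5.69, 4.58, 7.83 and 10.4 CPM, 5.24, 4.45 and 5.28 CPM, and 7.61, 6.09, 8, 4.72 and 8.44 CPM in batch 2. Every HFLF library exceeded every HF library in batch 1, and 1 HFLF library fell within the HF range in batch 2. The difference was 1.07 ± 0.31 over both batches (edgeR adjusted p = 0.0268). The other 3 called members had smaller or more variable differences over both batches. They were Parp14, a large ADP-ribosyltransferase, at 0.35 ± 0.11 (edgeR adjusted p = 0.0309), Oas1g at 0.29 ± 0.10 (edgeR adjusted p = 0.0428) and Oasl2 at 1.04 ± 0.35 (edgeR adjusted p = 0.0481). Oasl2 ran from 9.19 to 13.4 CPM in HF and from 19.2 to 79.1 CPM in HFLF of batch 1.

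**Figure D5:**
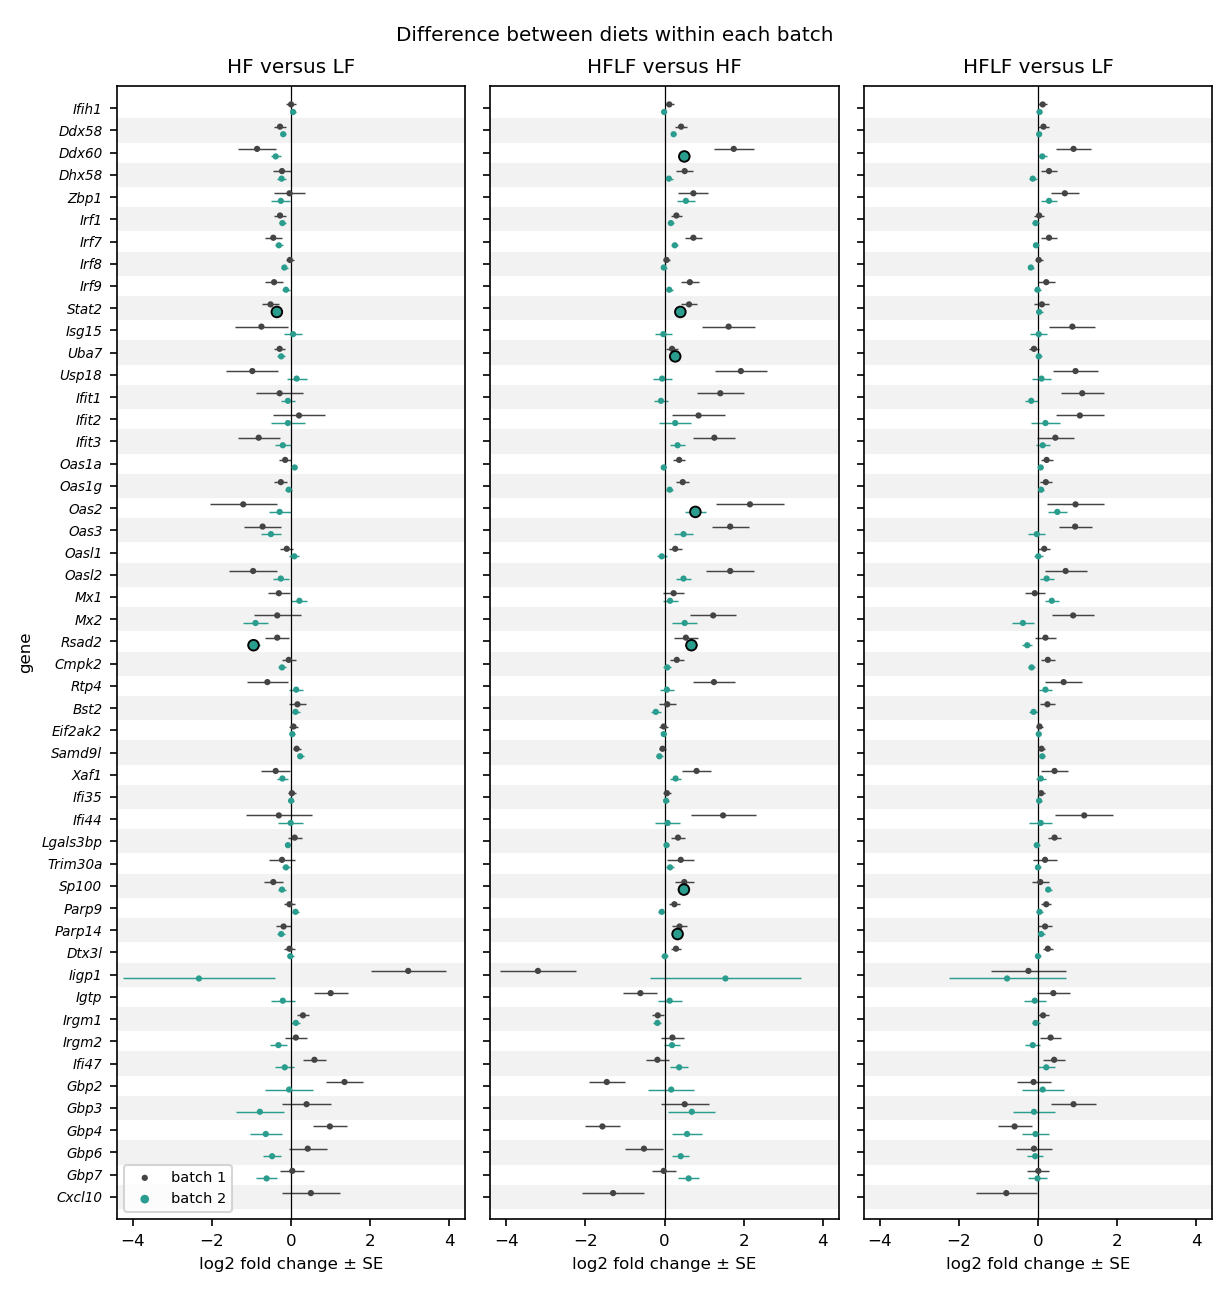
Log2 fold change ± SE of each member in the 3 diet comparisons, in batch 1 (grey) and batch 2 (green), with larger, black-edged points for calls and the vertical line at 0. In HFLF against HF most points lie right of 0 in both batches, while Iigp1, Igtp, Gbp2, Gbp4, Gbp6 and Cxcl10 of batch 1 lie left of it.

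Isg15, Usp18 and the IFIT genes, which are often used to read out type I interferon, had wider differences in batch 1 than in batch 2, and the difference between the batches was not tested for this comparison. None was called with edgeR, and DESeq2 called Ifit3 over both batches. Isg15, a ubiquitin-like modifier at chr4:156199424-156200818, had 6.68, 1.37, 1.49 and 2.12 CPM in LF, 1.62, 1.94 and 1.69 CPM in HF and 3.69, 2.45, 2.65 and 12.7 CPM in HFLF of batch 1. Its levels in batch 2 were 1.71, 1.23, 1.99 and 2.22 CPM in LF, 1.58, 2.21 and 1.79 CPM in HF and 2.29, 2.32, 1.59, 1.33 and 1.58 CPM in HFLF. All HFLF libraries exceeded all HF libraries in batch 1 (1.62 ± 0.66, edgeR adjusted p = 0.429), and the groups overlapped in batch 2 (-0.03 ± 0.22). Usp18, the protease that removes ISG15 and damps the type I receptor, had 4.38, 0.790, 1.30 and 1.37 CPM in LF, 0.949, 1.34 and 0.744 CPM in HF and 1.91, 1.56, 3.27 and 8.55 CPM in HFLF of batch 1. Its batch 2 levels were 1.41, 1.01, 0.996 and 1.37 CPM in LF, 1.06, 1.74 and 1.19 CPM in HF and 1.25, 1.54, 1.14, 0.787 and 1.60 CPM in HFLF. The difference of HFLF from HF was 1.93 ± 0.66 in batch 1 (edgeR adjusted p = 0.411) and -0.06 ± 0.24 in batch 2.

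Ifit1, which binds foreign RNA caps, had 26.7, 5.64, 12 and 9.54 CPM in LF, 12.4, 13.1 and 7.68 CPM in HF and 18.9, 12, 23.3 and 63.2 CPM in HFLF of batch 1. In batch 2 it had 8.68, 11.7, 11.6 and 14.9 CPM in LF, 11.1, 11.3 and 11 CPM in HF and 15.0, 8.84, 10.3, 8.55 and 9.76 CPM in HFLF. The HF libraries lay within the range of the other diets in batch 2, with a difference of -0.09 ± 0.17, against 1.41 ± 0.60 in batch 1 (edgeR adjusted p = 0.443). Ifit3 had 5.96, 1.37, 1.98 and 2.06 CPM in LF, 1.60, 1.91 and 1.37 CPM in HF and 2.95, 1.79, 3.13 and 7.72 CPM in HFLF of batch 1, and 1.80, 2.11, 1.72 and 2.56 CPM, 1.73, 1.95 and 1.67 CPM, and 3.21, 1.87, 2.23, 1.87 and 2.05 CPM in batch 2. Its groups overlapped in both batches, and the difference over both was 0.77 ± 0.30 (edgeR adjusted p = 0.0745).

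Zbp1, a sensor of Z-form nucleic acid, had 15.5, 5.81, 7.40 and 5.44 CPM in LF, 7.98, 9.42 and 7.53 CPM in HF and 10.3, 9.04, 11.9 and 23.8 CPM in HFLF of batch 1. Batch 2 had 8.81, 9.46, 9.67 and 11.4 CPM in LF, 5.52, 11.6 and 7.68 CPM in HF and 17.6, 11.2, 11.6, 8.63 and 10.8 CPM in HFLF. The groups overlapped, and the difference of HFLF from HF over both batches was 0.63 ± 0.24 (edgeR adjusted p = 0.0663). Bst2 (tetherin, which holds budding virions on the cell) had 5.49, 3.27, 3.23 and 3.88 CPM in LF, 4.42, 4.28 and 4.64 CPM in HF and 4.45, 4.01, 4.16 and 6.08 CPM in HFLF of batch 1, and 3.85, 4.54, 4.6 and 5.49 CPM, 4.72, 5.57 and 4.76 CPM, and 4.55, 4.31, 4.44, 3.88 and 4.23 CPM in batch 2. In batch 2 all HFLF libraries of Bst2 were below all HF libraries, a difference of -0.22 ± 0.12 that did not pass (edgeR adjusted p = 0.175).

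Over the whole set, the median log2 difference of HFLF from HF was 0.38 in batch 1, 0.16 in batch 2 and 0.28 over both, and the median of all genes lay between -0.003 and 0.012. It was above 0 for 39 of 50, 37 of 49 and 40 of 50 members, which is 78.0%, 75.5% and 80.0%, against 49.3%, 51.8% and 52.1% of all genes. In batch 1, 19 members were higher at an unadjusted p under 0.05, against 4.82% of all genes, and 3 were lower, against 6.08%, the 3 being Iigp1, Gbp2 and Gbp4. DESeq2 gave 20 higher and 3 lower there, with no call. Every HFLF library was above every HF library for 12 members in batch 1, against 3.95% of all genes, and for 8 in batch 2, against 14.6%. The 12 members of batch 1 included Isg15, Usp18, Irf7, Irf9, Dhx58, Rtp4, Xaf1 and 3 OAS genes.

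Several of these numbers rested on single libraries. Without HFLF replicate 4 of batch 1, the batch 1 median was 0.16 and 4 members were higher at an unadjusted p under 0.05, and over both batches the median was 0.19 with 6 calls. In batch 2 the 7 calls became 4 without HFLF replicate 1, with a median of 0.07, and also 4 without HFLF replicate 3 or 4 or HF replicate 1. Without HF replicate 2 of batch 2 there were 0 calls and without HF replicate 3 there was 1, while the log2 differences of Sp100, Rsad2, Ddx60 and Stat2 over all such fits stayed between 0.30 and 0.83. Over both batches the 11 calls fell to 1 without HF replicate 3 of batch 1, to 4 without HF replicate 1 of batch 1, to 5 without HF replicate 2 of batch 2, and to 6 without HF replicate 3 or HFLF replicate 1 of batch 2. In batch 1, 1 member was called without HF replicate 1.

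Markers of other cells also differed. In batch 2 the 8 T cell and intraepithelial lymphocyte markers summed to 21.1 to 25.2 CPM in HFLF and 15.0 to 20.8 CPM in HF, and 3 of the 8 rose, Cd3e by 0.94, Gzma by 1.45 and Itgae by 0.45 on the log2 scale (edgeR adjusted p = 0.0431, 0.0490 and 0.0237). In batch 1 the sums were 16.3 to 27.4 CPM in HFLF and 23.5 to 32.0 CPM in HF, and HFLF replicate 4, the library with the most ISG maxima, had 19.5 CPM. In batch 1 the macrophage and dendritic cell markers summed to 7.29 to 17.3 CPM in HFLF and 4.03 to 8.5 CPM in HF, the endothelial markers to 6.24 to 10.3 CPM and 1.65 to 6.87 CPM, and the fibroblast markers to 12.3 to 51.3 CPM and 2.86 to 28.4 CPM. Smooth muscle markers summed to 2.35 to 47.4 CPM in HFLF and 0.541 to 9.43 CPM in HF of batch 1, and to 1.6 to 14.5 CPM and 0.78 to 4.51 CPM in batch 2. The part of these cells in the higher members was not tested.

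The third comparison asks whether mice returned to the 10% fat diet still differed from mice that had always eaten it. No member was called in batch 1, in batch 2 or over both, with edgeR or with DESeq2. The shares of all genes called were 0.0%, 0.00696% and 0.0%. At an unadjusted p under 0.05, edgeR gave 2 higher members in batch 1 against 2.47% of all genes, 1 higher and 1 lower in batch 2 against 2.09% higher, and 1 higher over both against 1.88%, and DESeq2 gave the same counts. These were Oas3 (0.94 ± 0.42) and Lgals3bp (0.42 ± 0.16) in batch 1, Sp100 (0.26 ± 0.09) and Irf8 (-0.18 ± 0.07) in batch 2 and Zbp1 (0.47 ± 0.22) over both.

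Lgals3bp had 109, 73.8, 100 and 77 CPM in LF, 95.9, 86.9 and 104 CPM in HF and 111, 103, 103 and 165 CPM in HFLF of batch 1, and 121, 108, 127 and 125 CPM, 111, 114 and 116 CPM, and 120, 111, 124, 104 and 128 CPM in batch 2. LF and HFLF overlapped in both batches. Irf8, a factor best known from myeloid cells and also expressed in epithelium, had 75.9, 71.7, 69.8 and 67.7 CPM in LF, 73.9, 74.4 and 61.1 CPM in HF and 72.8, 70.7, 83.0 and 62.4 CPM in HFLF of batch 1. Its levels in batch 2 were 95.3, 83.6, 87.3 and 92.2 CPM in LF, 75.3, 84.7 and 79.2 CPM in HF and 87.2, 76, 85.0, 67.7 and 78.6 CPM in HFLF. Its highest library was 1.56 times its lowest over the whole study.

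Mx1, a GTPase gene, had 8.71, 7.97, 10.1 and 7.31 CPM in LF, 6.86, 8.96 and 4.91 CPM in HF and 6.44, 7.51, 5.62 and 12.7 CPM in HFLF of batch 1, and 5.32, 4.09, 4.95 and 4.69 CPM, 4.61, 7.96 and 4.05 CPM, and 5.47, 7.45, 6.11, 5.10 and 6.13 CPM in batch 2. The difference of HFLF from LF was -0.08 ± 0.25 in batch 1 and 0.35 ± 0.18 in batch 2, neither called. Dtx3l, the ubiquitin ligase partner of PARP9, had 86.8, 68.9, 69.5 and 63.3 CPM in LF, 65.5, 78.7 and 65.8 CPM in HF and 78.5, 74.8, 87.7 and 102 CPM in HFLF of batch 1, and 67, 69.7, 67.3 and 77.3 CPM, 66.8, 75.7 and 66.5 CPM, and 82.0, 59.6, 67.8, 72.7 and 69.1 CPM in batch 2. Its difference of HFLF from LF was 0.25 ± 0.12 in batch 1 and -0.00 ± 0.08 in batch 2. The loci of Dtx3l and Parp9 overlap by 558 bases on opposite strands, so that reads there could be assigned to either if strand was not used in counting.

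The median member differed between HFLF and LF by 0.22 in batch 1, 0.02 in batch 2 and 0.12 over both. The median of all genes lay between 0.002 and 0.009. The difference was above 0 for 43 of 50, 28 of 49 and 42 of 50 members. These shares are 86.0%, 57.1% and 84.0%, against 50.3%, 52.1% and 54.1% of all genes. Without HFLF replicate 4 of batch 1, 29 members lay above 0 in batch 1, and also 29 over both batches. The batch 1 median became 0.03 without HFLF replicate 4 and 0.43 without LF replicate 1, when 25 members were higher at an unadjusted p under 0.05. Over both batches the median was 0.01 without HFLF replicate 4 of batch 1. No fit without 1 library called a member in this comparison. T cell and intraepithelial lymphocyte markers summed to 16.3 to 27.4 CPM in HFLF and 27.1 to 38.8 CPM in LF of batch 1. In batch 2 the order was the opposite, with 21.1 to 25.2 CPM in HFLF and 16.6 to 21.0 CPM in LF. The sums of the other marker lists overlapped between HFLF and LF in both batches. The part of these cells in the member levels was not tested.

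The rest of the pathway showed few differences. Of 11 interferon genes counted, 7 had 0 counts in all 23 libraries, and a count of 0 in a library allows up to the floor given above. Ifng, the gene of interferon gamma, had 34 counts in all, in 13 libraries and at most 6 in any, and Ifnk, Ifnl3 and Ifna2 had 1 count each. None of the 9 receptor subunits and kinases was called in any of the comparisons. Irf2, a repressor and activator at the ISRE, fell by 0.45 in HF against LF and was 0.50 higher in HFLF against HF in batch 2 (edgeR adjusted p = 0.0372 and 0.0164). Ikbke, a kinase that activates IRF factors, was 0.33 higher in HFLF against HF in batch 2 (edgeR adjusted p = 0.0208), and it fell by 0.32 in HF against LF over both batches (edgeR adjusted p = 0.0210).

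Of 42 further interferon-induced genes in the file, 35 were tested in batch 2 and over both batches. Over both, Helz2 and Pml fell in HF against LF and Ifitm2 rose, and Helz2, Herc6 and Phf11d rose in HFLF against HF. Of all genes tested over both batches, 9.13% were called lower in HF against LF and 5.48% higher in HFLF against HF. Helz2, a helicase, fell by 0.38 ± 0.11 and then was higher by 0.37 ± 0.10 (edgeR adjusted p = 0.0130 and 0.0229). Pml, the scaffold of the nuclear bodies that hold Sp100, fell by 0.31 ± 0.07 (edgeR adjusted p = 0.00726). Among the MHC class I genes, the peptide transporter Tap2 fell by 0.34 ± 0.06 in HF against LF over both batches (edgeR adjusted p = 0.00169).

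Members that sit side by side in the genome were counted as separate loci. The intervals were 3.25 kb between Oas2 and Oas3, 6.99 kb between Ifit2 and Ifit3, 7.38 kb between Igtp and Irgm2, 11 kb between Oasl2 and Oasl1 and 12.8 kb between Rsad2 and Cmpk2. Oas1a and Oas1g, the IFIT genes and the guanylate-binding proteins have near-identical relatives, and how reads that match more than 1 locus were counted is not given in the sources used here, so the split among such copies is uncertain. Cxcl10 lies within the locus of Art3.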

How the data were processed

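RNA from 23 libraries of mouse colonic epithelium was sequenced as paired 76-base reads. The deposited values were whole-number counts per gene, which the authors made by trimming with cutadapt 1.2.1, alignment with STAR 2.5 to mm10 and counting with Subread featureCounts 1.5.0-p1. The strand setting and the treatment of reads matching several loci are not given in the sources used here. Depth differed between libraries, and the floor of 3 counts covers counting error only.

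Counts were tested as deposited with edgeR 4.0.16 (limma 3.58.1, R 4.3.3), using TMM scaling, the expression filter by diet and the robust quasi-likelihood test, with all 3 diets in 1 fit per batch and with batch as a term over both. Genes tested numbered 14428 in batch 1, 14377 in batch 2 and 14385 over both. Benjamini-Hochberg adjustment ran over all of them, and a call needed an adjusted p under 0.05 and a fold above 1.2. DESeq2 1.42.0, which the authors used, was an alternative, as were other scalings, filters, fold limits, subsets of diets, the replicate number as a block, libraries summed over batches and each library left out. The scripts were tested on simulated data. CPM used the TMM-scaled counts of the genes tested, in each batch separately, levels per kb the exon length in GENCODE vM21, and differences from the batch median log2(CPM + 0.1). Gene locations are mm10.

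Every member may be named. Values in every library are given for a panel of 14 members and for the 5 with the smallest unadjusted p in each comparison, 26 in all, and genes outside the members come from fixed lists. The members, lists and tests were chosen with earlier results of these data known. Promoter sequences are from RefSeq.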

Additional observations from a re-analysis of the deposited data

Results flagged for a closer look

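Among 104 groups of 4 or 5 libraries tested over 26 members, 20 had a highest library far from the others by Dixon's criterion, and all 20 came from 4 libraries. The members share the same libraries, so that 1 high library is counted again for each member. Some members were also picked by their p in these data. The number of flags is therefore not set against a chance rate. HFLF replicate 4 of batch 1 stood out for Ddx60 at 165 CPM, Isg15 at 12.7 CPM, Oas2 at 13.6 CPM, Oas3 at 42.2 CPM, Rsad2 at 24.9 CPM and Lgals3bp at 165 CPM. LF replicate 1 of batch 1 stood out for Isg15 at 6.68 CPM, Usp18 at 4.38 CPM and Ifit3 at 5.96 CPM. HFLF replicate 1 of batch 2 stood out for Ddx60 at 35 CPM, Ifit1 at 15.0 CPM, Ifit3 at 3.21 CPM, Iigp1 at 5.26 CPM, Igtp at 10.5 CPM and Gbp2 at 19.3 CPM. LF replicate 4 of batch 2 stood out for Irf1 at 195 CPM, Iigp1 at 8.77 CPM, Igtp at 12.7 CPM, Gbp2 at 20.2 CPM and Cxcl10 at 0.687 CPM. The HF groups held 3 libraries in each batch and could not be tested in this way.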

How the results depend on the processing

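In HF against LF of batch 2, where 2 members were called, DESeq2 called 4 and the fit with a replicate block 4. In HFLF against HF of batch 2, the 7 calls became 4 with only the 2 diets compared. Over both batches, the 4 calls in HF against LF became 2 with no filter on low counts and 7 with no minimum fold change. The 11 calls in HFLF against HF became 7 with only the 2 diets compared, 3 with the replicate block and 4 with libraries of the same diet and number summed over batches. Over both batches DESeq2 called 3 members in HF against LF, without Uba7, and 14 in HFLF against HF. Some of these fits hold fewer samples, and the causes of the changes were not tested. The shares of all genes called in these alternative fits are not given here. The labels do not say that replicate numbers pair libraries. Deviations of same-numbered libraries from their group means had correlations from -0.381 to 0.386 in batch 1 and from -0.119 to 0.389 in batch 2. Their medians were 0.069 and 0.0768, against -0.0166 and -0.0432 for different-numbered libraries of different diets. Across the batches within a diet, the medians were -0.0111 for same-numbered and -0.0033 for different-numbered libraries. A fit without the robust option, added after seeing the data, gave 2 and 5 calls in batch 2 and 4 and 11 over both.

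With 1 library left out, calls in HF against LF ranged from 0 to 3 in batch 1, from 0 to 5 in batch 2 and from 2 to 7 over both. Calls in HFLF against HF ranged from 0 to 1, from 0 to 7 and from 1 to 13. For the 30 within-batch results of single members with the smallest p, no alternative reversed the direction, but other members turned, and Isg15 in HF against LF of batch 1 ranged from -0.98 to 0.07 on the log2 scale with 1 library left out. Groups of 3 HF libraries and the low counts of Cxcl10, Iigp1 and Gbp4 limit what these data can show.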

Other observations

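Some interferon-induced genes outside the members differed in the opposite direction to the called ones. Ifi30, a lysosomal thiol reductase that prepares antigens for MHC class II, was 0.28 ± 0.07 higher on the log2 scale in HF against LF of batch 2 (edgeR adjusted p = 0.0362) and -0.34 ± 0.07 in HFLF against HF (edgeR adjusted p = 0.0120). The HF libraries are shared by both comparisons. Ifitm2, which restricts virus entry, rose by 0.45 ± 0.14 in HF against LF over both batches (edgeR adjusted p = 0.0243).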
